A study of Mus musculus with 7 samples.

Results

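The 10 genes Acan, Bcan, Ncan, Vcan, Tnr, Tnc, Hapln1, Hapln2, Ptprz1 and Adamts4 encode proteins of the brain extracellular matrix. The proteins are lecticans, tenascins, link proteins, a receptor phosphatase that carries chondroitin sulfate and a lectican-cleaving protease. The genes were chosen by name, and all 10 were found among the 35976 gene symbols of a read count table of astrocyte-enriched amygdala cells. The series asked what part astrocyte Egfr, which encodes the receptor of epidermal growth factor, plays under chronic stress. In the sgEgfr group (3 libraries), male C57BL/6J mice received adeno-associated virus in the amygdala with a guide RNA against Egfr. In the sgRosa group (4 libraries), mice of the same sex and strain received the control guide, which the genotype label gives as sgRosa26. Both groups shared everything else in the labels: Cas9 driven by the astrocyte promoter GfaABC1D, at least 2 weeks of expression, 7 days of tube restraint, then fear conditioning on 1 day and extinction on 3 days. No unstressed or uninjected group was analysed here, ages are not given, and the labels do not state whether different libraries are different mice. P-values therefore measure the spread between libraries, which may be technical.

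Perineuronal nets are dense coats of matrix around the cell body and proximal dendrites of certain neurons, above all fast-spiking interneurons that make parvalbumin. Hyaluronan chains at the cell surface carry lecticans, chondroitin sulfate proteoglycans that bind hyaluronan at their N-terminal end. Link proteins clamp that bond, and tenascin-R joins the C-terminal ends of several lecticans. In the amygdala, nets are known for protecting fear memories from erasure by extinction. Their parts come from several cell types: neurons make aggrecan, astrocytes make much of the brevican and neurocan, and oligodendrocyte precursors make versican and tenascin-R. Mature oligodendrocytes make the link protein Hapln2, which sits with brevican and a versican isoform at nodes of Ranvier rather than in nets.

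The libraries held 14983594, 17096879 and 22579222 counts in sgEgfr 1 to 3, and 14198048, 18345655, 9890649 and 5852870 counts in sgRosa 1 to 4. sgRosa 3 and sgRosa 4 differed by about sampling noise (chi-square per degree of freedom 1.04, against 14.8 to 158 for the other 20 pairs), so their counts were summed to 1 sample, sgRosa 3+4, leaving 3 samples in each group. Egfr itself did not separate the guides: it had 10.7, 5.69 and 8.04 CPM (counts scaled to a common library size) in sgEgfr 1 to 3, against 13.3, 2.87 and 10.6 CPM in sgRosa 1, sgRosa 2 and sgRosa 3+4, a log2 fold change of -0.13 (SE 0.54). Differences are therefore given between the guides as labelled. The cells were not astrocytes alone. The 15 oligodendrocyte markers took 8.20% to 14.4% of counts in sgEgfr samples and 7.31% to 10.9% in sgRosa samples, and the 15 astrocyte markers took 0.870% to 1.2% in sgEgfr samples and 0.562% to 1.36% in sgRosa samples. The defining astrocyte gene Slc1a2 was nevertheless abundant, with 1876 to 2554 CPM in sgEgfr samples and 1092 to 3039 CPM in sgRosa samples. Ependymal markers took 0.124% of counts in sgEgfr 3 and 0.0437% in sgRosa 3+4, and 0.00299% to 0.00828% in the other samples. Among the first 3 genes of each marker list, only ependymal Tmem212 was at 0 in a sample, sgRosa 2.

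Windows around a transcription start, from 250 bases before it to 50 after it, were read from RefSeq (GRCm38.p6) for 9 of the 10 genes. The windows of 4 genes are printed here because these genes show the 3 main profiles across samples: Bcan beside astrocyte markers, Hapln2 beside oligodendrocyte markers, and Vcan and Tnr beside precursor markers. Bcan and Hapln2 are also neighbours on chromosome 3, with 18.38 kb and no coding gene between them. That gap was measured from the outer RefSeq end of Bcan, at 88002175. This end lies upstream of the Bcan window printed here, which is placed around a start inside the gene. The outer RefSeq end of Vcan, at 89743027, likewise lies upstream of the Vcan window. Capitals mark matches, on either strand, to the core letters of 5 motifs. They are ACAAAG for SOX factors, which act throughout the glial lineage, and CAGCTG for the E-box bound by helix-loop-helix proteins. The others are TGANTCA for AP-1, which follows growth factor signals, TTGGCA for an NFI half-site, which is used in astrocyte genes, and TATAAA for the TATA box of core promoters. Matches of different motifs may overlap. Each line runs 5′ to 3′ on the gene's own strand: Bcan at chr3:88000307-88000606 (minus strand), Hapln2 at chr3:88027462-88027761 (minus strand), Vcan at chr13:89742463-89742762 (minus strand) and Tnr at chr1:159523519-159523818 (plus strand).
Bcan: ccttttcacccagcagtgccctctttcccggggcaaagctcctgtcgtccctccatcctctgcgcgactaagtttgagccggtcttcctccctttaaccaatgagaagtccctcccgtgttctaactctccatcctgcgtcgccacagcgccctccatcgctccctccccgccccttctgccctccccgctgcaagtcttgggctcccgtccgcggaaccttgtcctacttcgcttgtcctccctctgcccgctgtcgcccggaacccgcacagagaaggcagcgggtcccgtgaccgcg
Hapln2: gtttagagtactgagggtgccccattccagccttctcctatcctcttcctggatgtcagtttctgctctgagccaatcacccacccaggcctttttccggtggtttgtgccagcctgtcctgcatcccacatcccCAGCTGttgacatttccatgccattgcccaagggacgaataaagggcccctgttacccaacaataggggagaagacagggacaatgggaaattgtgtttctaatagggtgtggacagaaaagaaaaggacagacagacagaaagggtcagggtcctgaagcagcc
Vcan: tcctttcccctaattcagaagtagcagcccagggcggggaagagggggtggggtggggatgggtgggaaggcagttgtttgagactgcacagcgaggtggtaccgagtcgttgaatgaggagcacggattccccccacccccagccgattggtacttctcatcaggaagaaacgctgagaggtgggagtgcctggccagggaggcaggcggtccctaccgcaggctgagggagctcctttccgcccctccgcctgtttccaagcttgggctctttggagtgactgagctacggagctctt
Tnr: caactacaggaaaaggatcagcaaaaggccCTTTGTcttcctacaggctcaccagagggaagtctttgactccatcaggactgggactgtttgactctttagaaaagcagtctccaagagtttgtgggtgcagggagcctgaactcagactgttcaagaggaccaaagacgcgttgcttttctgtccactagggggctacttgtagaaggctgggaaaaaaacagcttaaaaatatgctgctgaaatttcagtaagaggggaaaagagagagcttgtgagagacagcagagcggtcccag

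The Tnr window held 1 SOX core, on the strand opposite to the gene, and the Hapln2 window held 1 E-box. No match to the 5 motifs lay in the Bcan or Vcan window. Of the windows not printed, that of Ncan held 1 NFI half-site, 1 TATA box and 1 E-box, and that of Acan 1 E-box. Each Tnc window held 1 TATA box, and 1 of them also held an NFI half-site. The Ptprz1 and Hapln1 windows held no match. Of all 32851 RefSeq windows of this length, 18.7% held the SOX core, 16.3% the E-box, 14.1% the NFI half-site, 13.6% the TATA box and 7.81% the AP-1 motif. A match describes letters only and is neither a site nor a cause of a level. The G and C content was 64% for Bcan, 61% for Vcan, 52% for Hapln2 and 48% for Tnr, against a median of 52.7% over all windows.

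Levels of different genes were compared as CPM per kilobase of exon, using all annotated exons of a gene. The link protein gene Hapln2 stood first with 327 ± 118 (SD over the 6 samples), followed by Bcan with 114 ± 34.8. These genes differ in their usual source, since Hapln2 is a gene of myelinating cells and Bcan of astrocytes and precursors. Ncan averaged 50.5 ± 16.7 and Adamts4 49.2 ± 13.5, and Ncan was above Adamts4 in only 3 of 6 samples, so their order was not separated. Ptprz1 averaged 19.1 ± 4.54, Vcan 2.24 ± 1.25 and Tnr 1.38 ± 0.607 CPM per kilobase. At the low end, Tnc averaged 0.20 ± 0.13, Hapln1 0.139 ± 0.122 and Acan 0.125 ± 0.0908 CPM per kilobase. Acan, the defining lectican of nets, was thus the lowest of the 10 on average, although Hapln1 was above it in only 1 of 6 samples. Hapln2 stood above Bcan, Bcan above Ncan, Adamts4 above Ptprz1 and Ptprz1 above Vcan in 6 of 6 samples, Vcan above Tnr in 5, Tnr above Tnc in 6 and Tnc above Hapln1 in 4. Hapln2 alone made up 47.5% to 75.2% of the summed level of the 10 genes per sample, and Bcan 9.05% to 26.5%.

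**Figure D1:**
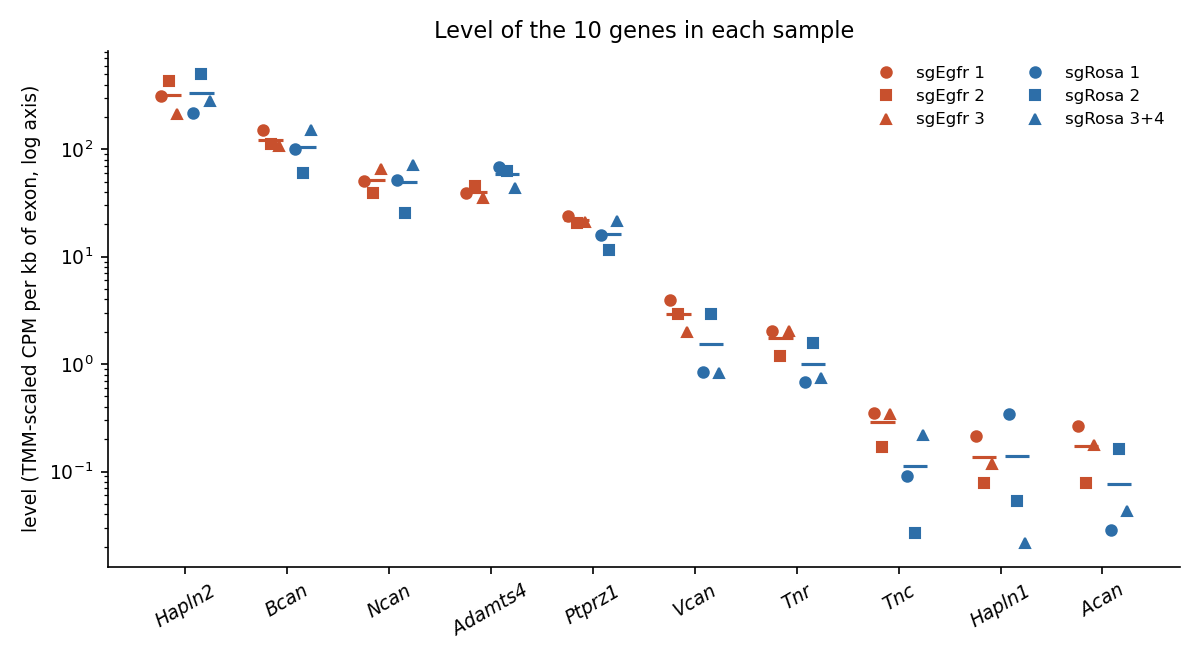
Level of each of the 10 genes per sample, as CPM per kilobase of exon on a log axis, with sgEgfr samples (orange) left of sgRosa samples (blue) and bars at the mean of each group. Hapln2 stands above Bcan in all 6 samples, and Tnc, Hapln1 and Acan lie lowest with the widest spread.

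All 10 genes passed the filter on low counts, and none passed the test between the guides. With edgeR's quasi-likelihood test and Benjamini-Hochberg adjustment over 14936 genes, 0 of 10 were called at an adjusted p under 0.05, where 0% of all tested genes were called. DESeq2 and limma-voom likewise called 0 genes. At an unadjusted p under 0.05 stood 1 of 10, Adamts4, beside 2.68% of all tested genes. DESeq2 and limma-voom each had 2 of the 10 at that level, beside 500 and 418 of all 14936 genes. Over all alternatives this count ran from 0 of 10, without sgEgfr 1, sgEgfr 3 or sgRosa 1, to 3 of 10, for instance without sgRosa 2. All tested genes at that level were 314 of 15488, 684 of 15189 and 236 of 15600 without sgEgfr 1, sgEgfr 3 and sgRosa 1. Without sgRosa 2 they were 466 of 15334. The log2 fold change was positive for 7 and negative for 3 of the 10, where 52.9% of all tested genes were positive, and the median was 0.34 over the 10 genes and 0.02 over all tested genes. The CPM ranges of the groups overlapped for all 10 genes, and did not overlap for 7.61% of all tested genes. The adjusted p was 0.997 or 0.998 for each of the 10, so the differences given below are measurements with their errors and no calls.

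**Figure D2:**
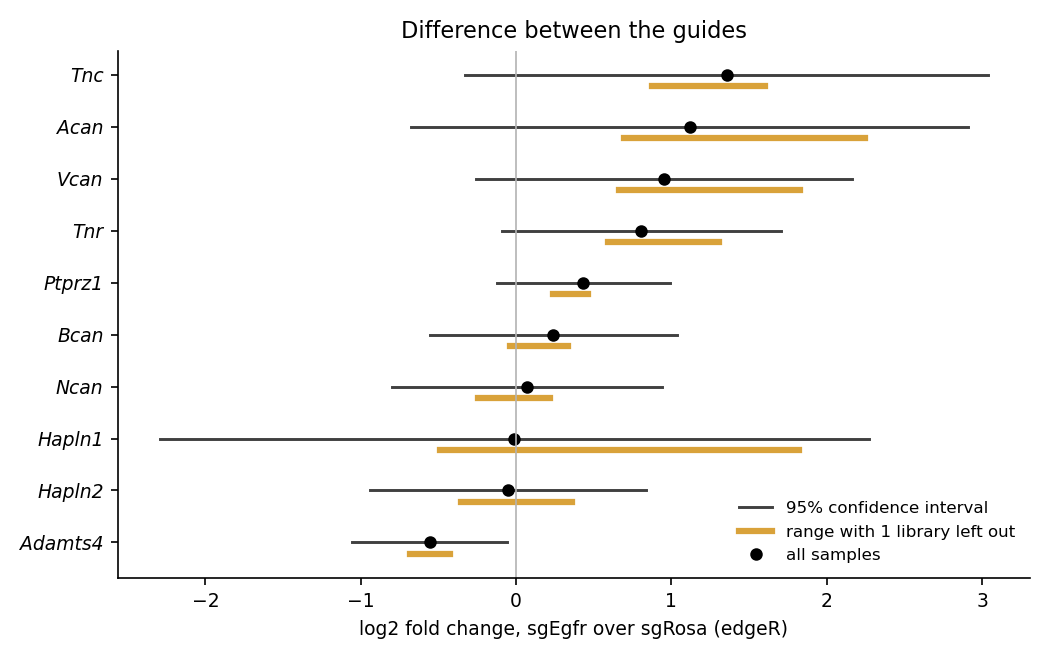
Log2 fold change of each gene, sgEgfr over sgRosa, from edgeR (point) with its 95% confidence interval (thin line) and the range of estimates with 1 library left out (thick line). Adamts4 at -0.56 is the only gene whose interval, -1.06 to -0.06, does not include 0 before adjustment.

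Brevican and neurocan were the abundant lecticans, and their difference between the guides was small beside the spread within each group. Brevican, encoded by Bcan, is the most abundant lectican of the adult brain and a substrate of Adamts4. Bcan had 617, 451 and 431 CPM in sgEgfr 1 to 3, against 407, 244 and 618 CPM in sgRosa 1, sgRosa 2 and sgRosa 3+4. Its lowest value was in sgRosa 2 and its highest values, nearly equal, were in sgRosa 3+4 and sgEgfr 1, so the groups overlapped across most of their range. The difference, as log2 fold change, came to 0.24 with an SE of 0.34 and a 95% confidence interval of -0.55 to 1.03. Neurocan, encoded by Ncan, is a lectican most abundant during brain development. Ncan had 368, 282 and 468 CPM in sgEgfr 1 to 3, against 369, 183 and 511 CPM in the sgRosa samples in the same order as for Bcan. Here too sgRosa 2 was lowest and sgRosa 3+4 highest, with all sgEgfr samples between them. Its log2 fold change was 0.07 (SE 0.37, interval -0.80 to 0.94). Per kilobase, Bcan exceeded Ncan by 1.63 to 2.97 times in every sample.

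Versican and aggrecan had far lower counts and were uneven within the sgRosa group. Versican, encoded by Vcan, binds hyaluronan and is made in brain largely by oligodendrocyte precursors. Vcan had 57.1, 42.5 and 28.7 CPM in sgEgfr 1 to 3, against 12.2, 42.1 and 11.9 CPM in sgRosa 1, sgRosa 2 and sgRosa 3+4. sgRosa 1 and sgRosa 3+4 lay below every sgEgfr sample, while sgRosa 2 lay beside sgEgfr 2. For Vcan the log2 fold change was 0.95 (SE 0.52, interval -0.26 to 2.16), and 1.82 without sgRosa 2. Markers of oligodendrocyte precursors moved with it: 13 of 15 had a positive log2 fold change, and their summed share of counts was 0.125% to 0.198% in sgEgfr samples and 0.109% to 0.178% in sgRosa samples. Their log2 fold changes ran from -0.33 to 1.33 with a median of 0.60. None of the defining precursor genes was at 0. Pdgfra, a growth factor receptor that marks these cells, had the highest log2 fold change of the list, 1.33. It had 171, 100 and 91.5 CPM in sgEgfr samples, against 36.3, 79.0 and 29.2 CPM in sgRosa samples. It was the 1 marker of the 15 whose CPM ranges did not overlap, beside 7.61% of all tested genes. Cspg4, a proteoglycan of the same cells, had 76.5, 36.8 and 41.1 CPM in sgEgfr samples, against 40.4, 46.1 and 36.5 CPM in sgRosa samples, so its ranges overlapped. With the precursor marker score as a covariate the log2 fold change of Vcan was 0.10 (SE 0.23), with the astrocyte score 1.60 and with the neuron score 2.77. Centred on its mean, the neuron score was 0.116, 0.403 and 0.339 in sgEgfr 1 to 3. In sgRosa 1, sgRosa 2 and sgRosa 3+4 it was 0.0117, -0.576 and -0.294, without overlap. A fit with the neuron score can therefore hardly tell guide and score apart. In such bulk samples fewer cells of a type and less RNA per cell cannot be told apart.

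Aggrecan, encoded by Acan, is the lectican on which net assembly depends. Acan had 31, 9 and 30 counts in sgEgfr 1 to 3, against 3, 23 and 5 counts in sgRosa 1, sgRosa 2 and sgRosa 3+4, or 1.97, 0.589 and 1.31 CPM against 0.212, 1.2 and 0.318 CPM. sgEgfr 2 was low within its group and sgRosa 2 high within the other, so the groups overlapped. Its log2 fold change of 1.12 had an SE of 0.77 and an interval of -0.68 to 2.91, and it ranged from 0.70 without sgEgfr 1 to 2.24 without sgRosa 2. Markers of neurons, the usual source of aggrecan, took few counts, 0.0449% to 0.0578% in sgEgfr samples and 0.0320% to 0.0494% in sgRosa samples. All 14 tested neuron markers had a positive log2 fold change, and none of the defining neuron genes Snap25, Syt1 and Rbfox3 was at 0. For 3 of the 14 the CPM ranges of the groups did not overlap, beside 7.61% of all tested genes. Relative to the neuron marker score, Acan differed by 0.59 on the log2 scale (exact two-sided permutation test, p = 0.7, smallest possible p 0.1), and by 0.041 without sgRosa 1 or 1.33 without sgRosa 2. With the precursor score as a covariate the log2 fold change of Acan was 0.30 (SE 0.70). With the neuron score, which did not overlap between the guides, it was 4.01, an estimate that can hardly tell guide and score apart.

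The tenascins are large multi-armed glycoproteins. Tenascin-R, encoded by Tnr, links lecticans into a mesh and is made by oligodendrocyte lineage cells and some interneurons. Tnr had 26.3, 15.3 and 26.1 CPM in sgEgfr 1 to 3, against 8.68, 20.4 and 9.54 CPM in sgRosa 1, sgRosa 2 and sgRosa 3+4. As with Vcan, sgRosa 2 was the high sample of its group, and it exceeded sgEgfr 2. For Tnr the log2 fold change was 0.81 (SE 0.39, interval -0.09 to 1.71, unadjusted p = 0.0716, edgeR), and 1.30 without sgRosa 2. With a marker score as a covariate it was 0.36 (SE 0.36) for precursors, 1.13 (SE 0.35) for astrocytes and 1.49 (SE 0.53) for endothelial cells. With the neuron score, which did not overlap between the guides, it was 2.06 (SE 0.51). It passed adjustment in none of these fits.

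Tenascin-C, encoded by Tnc, is abundant in the developing brain and is made by reactive astrocytes. Tnc had 43, 20 and 61 counts in sgEgfr 1 to 3, against 10, 4 and 27 counts in sgRosa 1, sgRosa 2 and sgRosa 3+4, or 2.73, 1.31 and 2.67 CPM against 0.706, 0.209 and 1.72 CPM. The groups overlapped through a single pair of samples, sgEgfr 2 and sgRosa 3+4. With 1.36, its log2 fold change was the highest of the 10 genes, with an SE of 0.72 (interval -0.33 to 3.04). Relative to the astrocyte marker score the difference was 1.26 on the log2 scale, and the sgEgfr samples did not overlap the sgRosa samples on that measure (exact two-sided permutation test, p = 0.1, the smallest that 3 against 3 samples can give, 0.5 after adjustment over the 10 genes). Per kilobase, the ratio of Tnr to Tnc was 5.82, 7.07 and 5.91 in sgEgfr 1 to 3, against 7.43, 58.9 and 3.36 in sgRosa 1, sgRosa 2 and sgRosa 3+4. The ratio of 58.9 rests on the 4 Tnc counts of sgRosa 2.

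The link proteins of nets and of nodes lay at opposite ends of the order of levels. Hapln1 encodes the link protein that fixes aggrecan to hyaluronan in nets. Hapln1 had 20, 7 and 16 counts in sgEgfr 1 to 3, against 29, 6 and 2 counts in sgRosa 1, sgRosa 2 and sgRosa 3+4. The value of sgRosa 3+4 has an exact Poisson interval of 0.242 to 7.22 counts, for counting error only. Both the highest and the lowest of the 6 levels, 2.05 and 0.127 CPM, were sgRosa samples, 16.1-fold apart, which was the widest range of the 10 genes. Its log2 fold change was -0.01 (SE 0.98, interval -2.30 to 2.27). The 29 counts of sgRosa 1 have an interval of 19.4 to 41.6, above that of sgRosa 3+4, so the spread within the group exceeded counting error.

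Hapln2 encodes the link protein of nodes of Ranvier. Hapln2 had 747, 1033 and 502 CPM in sgEgfr 1 to 3, against 511, 1183 and 673 CPM in sgRosa 1, sgRosa 2 and sgRosa 3+4. Replicate 2 was the highest sample of each group, and the groups overlapped throughout. This gave a log2 fold change of -0.05 (SE 0.38, interval -0.94 to 0.84). The per kilobase ratio of Hapln2 to Bcan was 2.08, 3.93 and 2.00 in sgEgfr 1 to 3, against 2.15, 8.31 and 1.87 in sgRosa 1, sgRosa 2 and sgRosa 3+4. These neighbours, with a gap of 18.38 kb between them on chromosome 3, thus had unlike profiles. Vcan and Hapln1 are likewise neighbours, 43.48 kb apart on chromosome 13, as are Ncan and Hapln4 on chromosome 8 (2.22 kb) and Acan and Hapln3 on chromosome 7 (1.93 kb). Hapln4, the link protein of brevican in certain nets, differed by 0.55 (SE 0.56) on the log2 scale, and Hapln3, a link protein found outside the nervous system as well, 0.25 (SE 0.65).

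Ptprz1 encodes a receptor tyrosine phosphatase that carries chondroitin sulfate, and its secreted form, phosphacan, binds tenascins and lies in the matrix. Ptprz1 had 344, 293 and 302 CPM in sgEgfr 1 to 3, against 227, 165 and 303 CPM in sgRosa 1, sgRosa 2 and sgRosa 3+4. The sgEgfr samples lay close together, sgRosa 1 and sgRosa 2 below them, and sgRosa 3+4 among them. This gave a log2 fold change of 0.43 (SE 0.24, interval -0.12 to 0.99), and 0.24 without sgRosa 2. Gene-level counts do not separate the receptor from phosphacan.

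Adamts4 encodes a protease that cuts brevican and aggrecan, and in brain it is known as a marker of oligodendrocytes. Adamts4 had 187, 219 and 168 CPM in sgEgfr 1 to 3, against 330, 303 and 211 CPM in sgRosa 1, sgRosa 2 and sgRosa 3+4. The groups overlapped only in that sgEgfr 2 exceeded sgRosa 3+4. The log2 fold change was -0.56 (SE 0.21, interval -1.06 to -0.06, unadjusted p = 0.0336, adjusted p = 0.997, edgeR), and it did not pass the test. It stayed negative with each library left out, from -0.68 without sgEgfr 2 to -0.43 without sgRosa 1. Of 15 oligodendrocyte markers, 7 had a positive and 8 a negative log2 fold change, from -0.59 to 0.78, and their mean score differed by -0.01. In 2 of these 15 markers the CPM ranges of the groups did not overlap, beside 7.61% of all tested genes. Relative to that score Adamts4 differed by -0.53 on the log2 scale, with no overlap between the groups (exact two-sided permutation test, p = 0.1, the smallest possible, 0.5 after adjustment). That difference was -0.26 without sgRosa 1. The part of oligodendrocyte RNA in the level of Adamts4 was not tested beyond this score and the same markers as a covariate, which gave -0.56 (SE 0.20).

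The source of the 10 genes was described by how closely their levels followed cell type marker scores over the 6 samples, as the root mean square distance between log2 CPM values centred on their mean. This is a description over samples that share 1 dissociation and bead protocol, and it carries no test. Bcan, Ncan and Ptprz1 lay nearest to the astrocyte score, at 0.151, 0.187 and 0.170 log2 units. All 3 were low in sgRosa 2, the sample in which astrocyte markers took 0.562% of counts. Tnc was also nearest to the astrocyte score, but at 0.774. Vcan, Tnr and Acan lay nearest to the oligodendrocyte precursor score, at 0.358, 0.325 and 0.534, and all 3 were high in sgRosa 2 relative to the other sgRosa samples. Hapln2 lay nearest to the oligodendrocyte score, at 0.169. Adamts4 was nearest to it as well, at 0.392, with the fibroblast and mural score, which varied little between samples, at the same distance. It did not follow the oligodendrocyte score closely. In sgRosa 1 centred Adamts4 was highest, at 0.523, where that score was -0.269. Hapln1 followed no score closely, being nearest to the endothelial one at 0.773 and 0.945 from the neuron score. For Ptprz1 the precursor score of the textbook assignment was only number 7 of 8 in nearness, at 0.620. For Acan the neuron score was number 5 of 8, at 0.986.

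**Figure D3:**
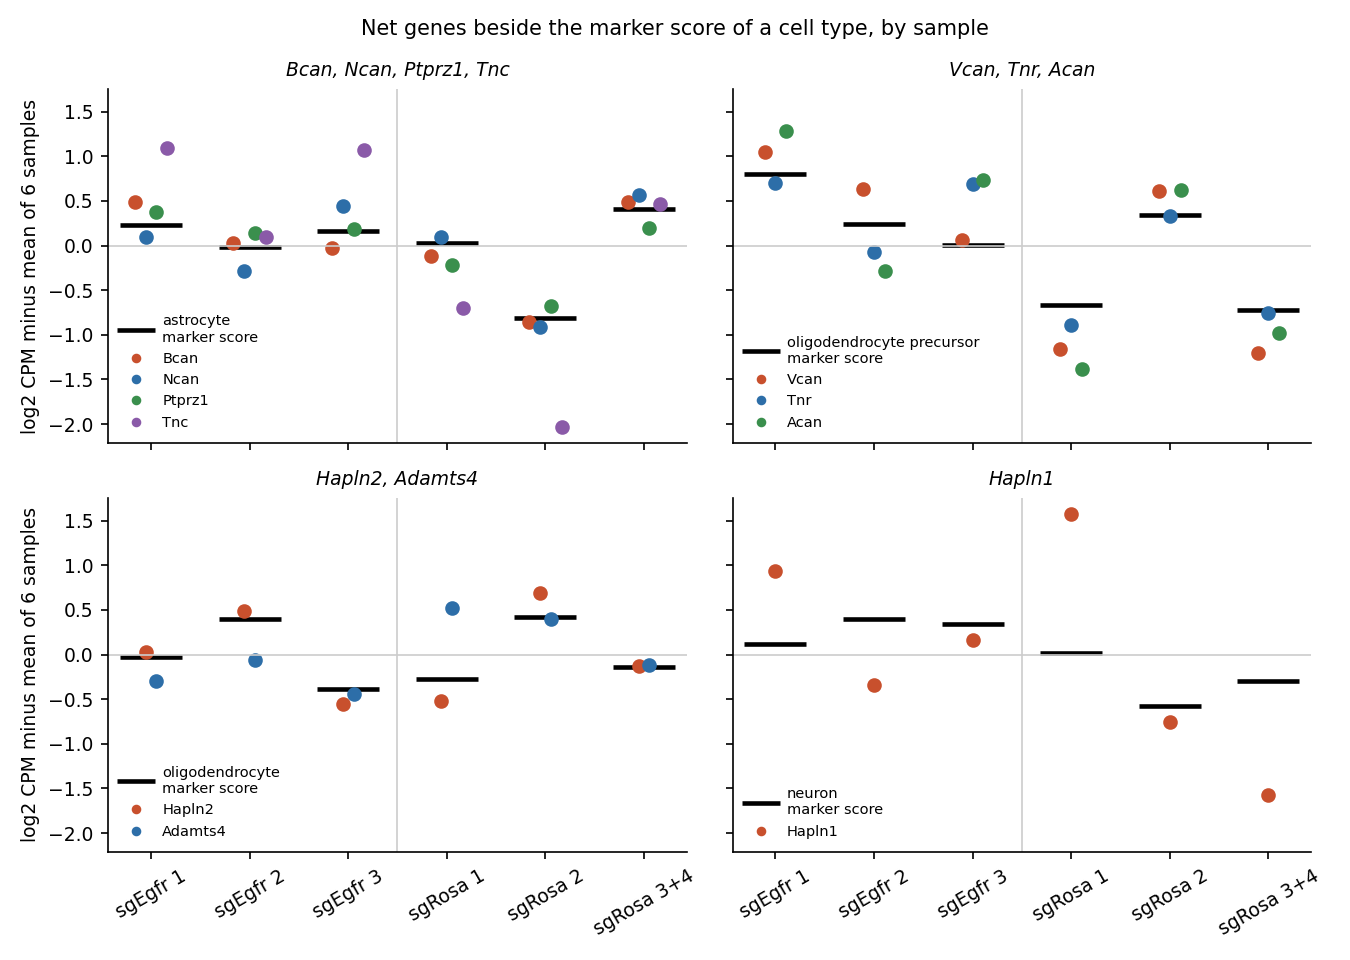
Log2 CPM of each gene minus its mean over the 6 samples (points), with a cell type marker score centred in the same way (bars), in 4 panels by marker list, sgEgfr samples left of sgRosa samples. Bcan, Ncan and Ptprz1 share the low value of the astrocyte score in sgRosa 2, Vcan, Tnr and Acan are low in sgRosa 1 and sgRosa 3+4 as the precursor score is, and Hapln1 departs from the neuron score.

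With each gene's level set against the score of the marker list assigned to it from general knowledge, the remaining differences between the guides were 0.07 for Bcan and -0.09 for Ncan (astrocyte). They were 0.47 for Vcan, 0.18 for Tnr and -0.22 for Ptprz1 (precursor), -0.01 for Hapln2 (oligodendrocyte) and -0.07 for Hapln1 (neuron), on the log2 scale. None of these 7 had an exact permutation p under 0.3 in two-sided tests of 3 against 3 samples. Without sgRosa 2 the value was 0.72 for Vcan and -0.79 for Ptprz1, and without sgRosa 1 it was 0.34 for Vcan and -0.055 for Ptprz1. The precursor score lay far from the profile of Ptprz1 (0.620, against 0.170 for the astrocyte score), so its value here says little about source.

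Up to 3 genes with the profile most like each of the 10 over the 6 samples were taken from all tested genes, by the same distance. Nearest to Hapln2 was Mag (0.0835), which encodes a myelin glycoprotein, followed by Rffl (0.0845) and Kcnk13 (0.0909). Nearest to Bcan were Brinp2 (0.0729), Axl (0.0833), a receptor kinase, and Fndc4 (0.0859). Ncan had Ormdl3 (0.0705), Wwtr1 (0.0814), a transcriptional coactivator, and Tmie (0.0941). The third gene of the Vcan list (3110035E14Rik at 0.0927, Gm30798 at 0.165) was Pcdh15 at 0.178, which is itself 1 of the 15 precursor markers. Tnr had Alox8 (0.149), 1700086L19Rik (0.175) and Elfn2 (0.202), and Ptprz1 had Slmo1 (0.0524) and Pdxp (0.0571). Adamts4 had Map6d1 (0.0823), Carmn (0.0908) and 4932438A13Rik (0.10). The genes of low count had no near neighbour: the closest were Nectin4 at 0.236 for Acan, followed by Dcc (0.312), a netrin receptor, and Plpp4 (0.322), Ass1 at 0.242 for Tnc, followed by Col15a1 (0.295) and Plod2 (0.314), and Bmx at 0.295 for Hapln1, followed by Fn1 (0.376), which encodes fibronectin, and Gm35231 (0.387). Among the 10 genes themselves, Bcan lay 0.183 from Ptprz1 and 0.299 from Ncan, Acan 0.358 from Tnr, and Vcan 0.477 from Tnr. With 6 samples, many genes share a profile, and these distances describe these libraries only.

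Other genes of the net and its sugar chains were followed through 8 lists with 80 genes, of which 66 passed the filter on low counts. With edgeR none was called, 35 had a positive and 31 a negative log2 fold change, and the median was 0.01, beside 0.02 for all tested genes. The single gene of the 66 at an unadjusted p under 0.05, beside 2.68% of all tested genes, was Timp2, an inhibitor of matrix metalloproteinases. It had 38.4 ± 7.07 CPM in sgEgfr samples and 53.8 ± 4.70 CPM in sgRosa samples (SD, n = 3 each). Its log2 fold change was -0.49 (SE 0.18, unadjusted p = 0.027, adjusted p = 0.997, edgeR). The CPM ranges of the groups did not overlap for Timp2, nor for Arsb, Nptx2 and Itga9, which were higher in sgEgfr samples, beside 7.61% of all tested genes.

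Enzymes that build, sulfate or degrade chondroitin sulfate had positive log2 fold changes in 6 of 21 tested and a median of -0.06. The other brain proteoglycans were positive in 6 of 7 with a median of 0.33. The list of neuron genes associated with nets, which need not be made by net-bearing neurons, was positive in 4 of 5 with a median of 0.40. Proteases and their inhibitors were positive in 6 of 9 (median 0.05), ligands and partners of Ptprz1 and tenascin-R in 6 of 9 (median 0.01), and the other tenascins and link proteins in 2 of 3 (median 0.25). Receptors of chondroitin sulfate proteoglycans were positive in 3 of 7 (median -0.01) and hyaluronan genes in 2 of 5 (median -0.22). The hyaluronan synthase genes Has1, Has2 and Has3 did not pass the filter. A few abundant genes of these lists, picked after their values were seen, are given as examples. Ncam1, an adhesion molecule that binds phosphacan, averaged 760 ± 82.4 CPM in sgEgfr samples and 744 ± 97.3 CPM in sgRosa samples. Sdc4, a cell surface heparan sulfate proteoglycan, averaged 681 ± 269 CPM in sgEgfr samples and 774 ± 420 CPM in sgRosa samples. Ptprd, a receptor phosphatase, averaged 465 ± 102 CPM in sgEgfr samples and 537 ± 129 CPM in sgRosa samples. Timp3, a matrix-bound inhibitor that also blocks Adamts4, averaged 366 ± 37.3 CPM in sgEgfr samples and 308 ± 88.8 CPM in sgRosa samples (SD, n = 3 each). Pleiotrophin, encoded by Ptn, a ligand of Ptprz1, averaged 561 ± 62.4 CPM in sgEgfr samples and 569 ± 68.9 CPM in sgRosa samples.

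**Figure D4:**
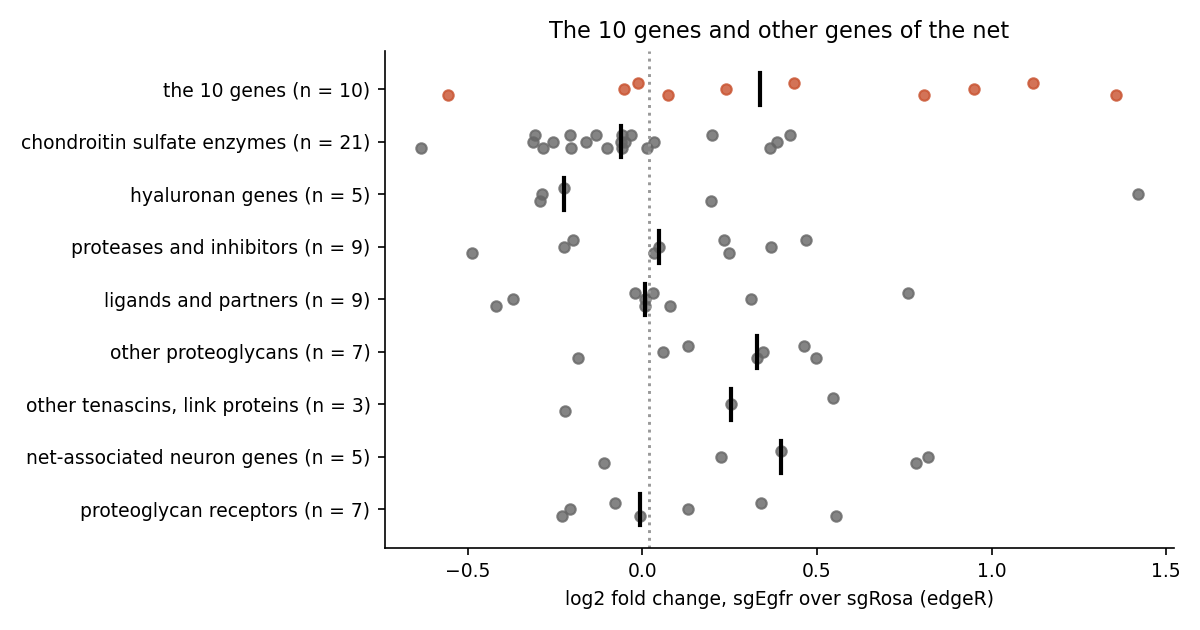
Log2 fold change, sgEgfr over sgRosa (edgeR), of the 10 genes (orange) and of the tested genes of 8 lists (grey), with the median of each list (black bar) and of all tested genes (dotted line). The 10 genes span -0.56 to 1.36 around a median of 0.34, and no gene shown passed the test.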

How the data were processed

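Bulk RNA-seq libraries of ACSA-2 bead-enriched amygdala cells were analysed, 3 of sgEgfr and 4 of sgRosa. The authors deposited unnormalised whole-number counts of reads per gene, both in a joint table and in single files for the 7 libraries, which held equal values. The submitters' processing notes state that the build was mm10 and the tools were fastp 0.23.2, STAR 2.7.5c, featureCounts 2.0.1, edgeR 3.42.4, FastQC 0.11.9 and MultiQC 1.11. Which annotation was used, whether counting used strand and how ambiguous reads were handled is not given in the sources used here. Counts of overlapping genes are uncertain for that reason. Depth ran from 5852870 to 22579222 counts per library. Reads carry no stated molecular identifiers, so intervals on counts cover counting error only.

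In edgeR 4.0.16 (R 4.3.3), filterByExpr removed genes of low count (minimum 10, total 15), TMM set the scale, and glmQLFit with glmQLFTest compared the guides without further terms. Benjamini-Hochberg adjustment ran over 14936 genes, called under 0.05. Libraries were compared in pairs by chi-square over genes with at least 20 counts, and sgRosa 3 and 4 were summed. CPM values are scaled with TMM. Marker scores are mean log2 CPM with a prior count of 2, over lists of astrocytes, oligodendrocytes, their precursors, neurons, microglia, endothelial, ependymal, and fibroblast and mural cells. Exon lengths came from GENCODE M21, and RefSeq (GRCm38.p6) gave the promoter windows.

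The 10 genes and the lists were chosen with earlier results of these data known. Genes named besides the 10 and Egfr were, per net list, up to 2 with the smallest p under 0.05, the 3 genes nearest in profile to each of the 10, and the first 3 of a marker list, with exceptions stated, and 1 gene near Ptprz1 in profile is not reported here. The scripts were tested on simulated counts. Alternatives were other scaling, other filters, DESeq2 1.42.0, limma-voom (3.58.1), a replicate block, 7 separate libraries, marker covariates and left-out libraries.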

Additional observations from a re-analysis of the deposited data

How the results depend on the processing

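No gene of the 10, and no gene at all, was called at an adjusted p under 0.05 in edgeR or in any of the 23 alternatives, DESeq2 (500 genes at an unadjusted p under 0.05) and limma-voom (418) among them. The estimates of Acan, Vcan, Tnr, Tnc and Ptprz1 stayed positive, and those of Adamts4 and Timp2 negative, in every alternative that could be fitted. Acan could not be fitted without sgRosa 2 and sgEgfr 3 together, nor Hapln1 with the filter of 1 CPM in 3 samples, because they failed the filter there. The lowest adjusted p of any of the 10 genes was 0.0697, for Vcan (log2 fold change 2.05, SE 0.23) without sgRosa 2 and sgEgfr 3, a pair chosen after seeing the data; over all alternatives for Vcan the adjusted p ran up to 1.00. Covariates moved some values widely: Vcan ran from 0.10 with precursor markers to 2.77 with neuron markers, and Acan from 0.30 to 4.01 under the same covariates. The neuron score did not overlap between the guides, so fits with it can hardly tell guide and score apart. Of the 10 genes, 3 stood at an unadjusted p under 0.05 with the replicate block, beside 705 of all 14936 tested genes. The count was also 3 with oligodendrocyte, astrocyte, neuron or ependymal covariates, beside 680, 445, 520 and 653 of 14936. It was 3 without sgRosa 2, beside 466 of 15334, and without sgRosa 3 and 4, beside 960 of 15455. It was 0 without sgEgfr 1 (314 of 15488), sgEgfr 3 (684 of 15189) or sgRosa 1 (236 of 15600).

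Estimates near 0 changed sign, and the cause was not tested. With 7 separate libraries Ncan was -0.0757, Hapln1 0.209 and Hapln2 0.00172, and with limma-voom Hapln1 was 0.735, Hapln2 0.0125 and Egfr 0.182. With astrocyte markers as a covariate Ncan was -0.133 and Hapln2 0.205, and with neuron markers -0.528 and 0.887. With precursor markers Hapln1 was 0.346 and Egfr 0.783, and with oligodendrocyte markers 0.158 and 0.0786. With ependymal markers, added after seeing the data, Ncan was -0.0307, Hapln1 0.0560 and Hapln2 0.0796, and with endothelial markers, added likewise, Hapln2 was 0.361. Without sgRosa 2 and sgEgfr 3 Ncan was -0.439 and Hapln2 0.588, and without sgRosa 3 and 4 Egfr was 0.0191. With 1 library left out, Bcan ran from -0.038 to 0.335, Ncan from -0.243 to 0.219, Hapln1 from -0.489 to 1.82, Hapln2 from -0.357 to 0.361 and Egfr from -0.553 to 0.275. Relative to the assigned marker list, the ranges were -0.039 to 0.188 for Bcan, -0.247 to 0.0278 for Ncan, -0.121 to 0.381 for Tnr, -0.144 to 0.114 for Hapln2 and -0.488 to 0.709 for Hapln1, which was 0.101 with a prior count of 0.5. They were 0.041 to 1.33 for Acan, 0.96 to 1.52 for Tnc, 0.34 to 0.72 for Vcan, -0.79 to -0.055 for Ptprz1 and -0.67 to -0.26 for Adamts4.

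The labels do not say that replicate numbers pair the samples. Deviations from the group means correlated at -0.106, 0.517 and 0.549 for numbers 1, 2 and 3, so that numbers 2 and 3 correlated best with their own number and sgEgfr 1 with sgRosa 2. Pairing was not used because it did not hold for every number. With the number as a replicate block 0 genes were called (705 at an unadjusted p under 0.05, against 401 without it), Vcan was 1.16 (unadjusted p = 0.018, edgeR), Tnc 1.61 (0.0269), Adamts4 -0.54 (0.0204), Hapln1 0.506 and Egfr 0.0600. Counting error weighs most on Acan, Tnc and Hapln1, which had as few as 3, 4 and 2 counts in a sample.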

Other observations

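The remaining marker lists gave the following values. All 10 microglia markers had a positive log2 fold change, and their score differed by 0.41 between sgEgfr and sgRosa samples. Of the 10 endothelial markers 9 were positive, with a score difference of 0.71. For 4 of these 10 the unadjusted p was under 0.05 (edgeR), beside 2.68% of all tested genes. The CPM ranges also did not overlap for 4 of the 10, beside 7.61% of all tested genes. All 10 ependymal markers were positive, with a score difference of 1.14. Their score was 2.38, -0.19 and 6.67 in sgEgfr 1 to 3, against 1.55, -1.15 and 5.06 in sgRosa 1, sgRosa 2 and sgRosa 3+4. The high value of sgEgfr 3 raises this difference, and that of sgRosa 3+4 lowers it. Of 9 tested fibroblast and mural markers 4 were positive, with a score difference of 0.12. Their part in the levels of the 10 genes was not tested beyond the covariates given above, and no marker of any list was called.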
